A study of Mus musculus with 6 samples.

Results

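The genes described here are 10 genes of cartilage and tendon, each read by 1 probe on 1-colour Agilent mouse arrays. Ucma, Cilp, Cilp2, Acan, Hapln1, Chad and Matn2 encode proteins of the extracellular matrix, Tnmd encodes a membrane protein of tendon cells, and Scx and Mkx encode transcription factors of the tendon lineage. Their probes were found by gene name among the 55681 probes that are not controls. The set was chosen by the detection and level of Ucma and Cilp on these arrays, which appeared after treatment with transforming growth factor beta (TGFb), so the values of these 2 genes are given as a description, with no test. The other 8 genes were not the reason for the choice.

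The cells were myoblasts, the precursors of skeletal muscle fibres, sorted by flow cytometry from skeletal muscle of male C57BL/6 mice with an age label of 3 months and grown in serum-containing medium. A group of 3 arrays came from cells exposed to TGFb for 4 days and the other group of 3 arrays from cells left without it. The dose and isoform of TGFb, and the number of animals behind each culture, are not given in the labels. The labels call the arrays of a group biological replicates.

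Cartilage matrix is built on a collagen network that holds aggrecan, a large proteoglycan bound to hyaluronan through link proteins, together with smaller adaptor proteins. Tendon is laid down by tenocytes, whose progenitors are marked by the transcription factor scleraxis. TGFb is a secreted growth factor that acts through SMAD transcription factors. It supports cartilage formation from mesenchymal progenitors, induces Scx in tendon progenitors and holds back the differentiation of muscle precursors.

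The DNA just upstream of 3 of the genes is shown because Ucma and Cilp were detected on the TGFb arrays and on no untreated array, while Cilp2, the close relative of Cilp, read lower on every TGFb array than on any untreated array. Promoter entries were found for 7 of the 10 genes in a RefSeq table (assembly GRCm38.p6). Each sequence below is the 250 bases before the annotated start of the gene, read 5′ to 3′ on the strand of the gene. Capitals mark the E-box, CANNTG, the core bound by basic helix-loop-helix factors such as MyoD and scleraxis. The window of Ucma is chr2:4975872-4976121 on the plus strand, that of Cilp is chr9:65264930-65265179 on the plus strand, and that of Cilp2 is chr8:69887393-69887642 on the minus strand.
Ucma: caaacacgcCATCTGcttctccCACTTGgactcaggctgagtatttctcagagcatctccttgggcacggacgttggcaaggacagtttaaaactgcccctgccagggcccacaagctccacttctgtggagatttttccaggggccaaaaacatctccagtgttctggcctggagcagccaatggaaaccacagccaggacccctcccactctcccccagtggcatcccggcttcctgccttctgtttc
Cilp: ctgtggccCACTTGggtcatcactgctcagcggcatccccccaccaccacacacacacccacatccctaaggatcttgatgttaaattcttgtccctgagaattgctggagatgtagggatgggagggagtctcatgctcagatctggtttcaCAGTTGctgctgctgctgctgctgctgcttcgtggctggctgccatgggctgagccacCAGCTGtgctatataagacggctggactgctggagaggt
Cilp2: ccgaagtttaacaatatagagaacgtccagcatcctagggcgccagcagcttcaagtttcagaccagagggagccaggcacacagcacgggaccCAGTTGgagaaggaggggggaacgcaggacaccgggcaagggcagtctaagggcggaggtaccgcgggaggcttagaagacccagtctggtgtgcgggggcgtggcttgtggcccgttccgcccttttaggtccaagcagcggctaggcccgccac

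The Ucma window held 2 E-boxes, the Cilp window 3 and the Cilp2 window 1. Among 32851 windows of the same length in the table, 66.22% held at least 1 E-box and 31.81% held at least 2. Both the Ucma and the Cilp window held the E-box CACTTG once, a form that was picked out after the sequences were seen and that 11.61% of windows held. The SMAD box CAGAC, searched on both strands, was absent from the Ucma and Cilp windows and occurred 2 times in that of Cilp2. Among all windows 42.19% held at least 1 and 11.73% held at least 2. The AP-1 motif TGANTCA, present in 6.749% of windows, was absent from all 3. The SOX motif AACAAT was found once, in the window of Cilp2, and was held by 9.424% of windows. These matches describe letters in a short window and were not tied to any binding measurement.

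Levels are given as log2 of the processed intensity, after subtracting the 75th percentile of the array, so that 0 is the level of that percentile. A probe was called above background where the scanner software flagged it as well above background. Between 52.0% and 56.7% of spots were above background on an array, and the 75th percentile lay between 879 and 1578 intensity units. Scanning took place on 2 days. Day 1 held TGFb replicate 1 with untreated replicates 1 and 2. Day 2 held untreated replicate 3 with TGFb replicates 2 and 3. The first principal component of the tested genes, which carried 72.4% of the variance, separated the days, and the second, with 16.3%, the groups. Each comparison is therefore given with the group as the only term and again with scan day in the model, beside the difference within each day.

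Untreated replicates 1 and 2, whose scanner files carry the same sample number, were closer to each other than any other pair: the SD of their log2 difference over 13112 bright probes was 0.155, against 0.516 for TGFb replicates 2 and 3. The SD between spots of a probe on 1 array was 0.0492 to 0.0601. It leaves out the noise between arrays, so it cannot show whether untreated replicates 1 and 2 are separate. They were kept as separate samples, as labelled. Whether they come from separate cultures is not known, and p-values may measure a spread that is partly technical. Of 8 myoblast markers, 7 were above background on all 6 arrays, among them Pax7, Myod1 and Des, and Myf5 was above background on 1 array. In the fit with the group as the only term (limma, Benjamini-Hochberg adjustment over all genes), 308 of 21960 genes, or 1.4%, differed at an adjusted p under 0.05, of which 153 (0.697%) were higher after TGFb and 155 (0.706%) lower. With scan day in the model, 2253 of 21837 genes, or 10.3%, passed, with 1019 (4.67%) higher and 1234 (5.65%) lower. The median difference over all tested genes was 0.05 in the first fit and 0.04 in the second.

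**Figure D1:**
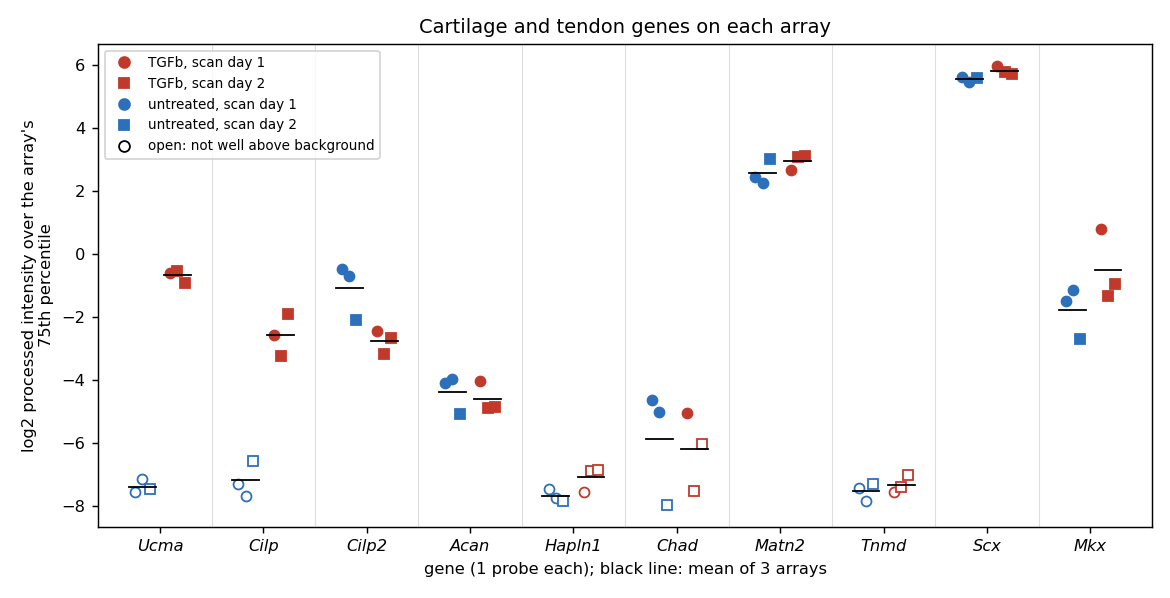
Log2 level of each gene on each array, relative to the 75th percentile of that array, with TGFb arrays in red and untreated arrays in blue. Circles were scanned on day 1 and squares on day 2, open symbols were not well above background, and black lines are means of 3 arrays. Ucma and Cilp are filled on the TGFb arrays and open on the untreated arrays, Chad is filled on day 1 arrays alone, and Hapln1 and Tnmd are open throughout.

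Ucma, which encodes a secreted protein rich in gamma-carboxyglutamate and made by cartilage cells, was detected on the TGFb arrays and on no untreated array. Its log2 level was -0.59, -0.54 and -0.90 on TGFb replicates 1, 2 and 3, and -7.56, -7.12 and -7.45 on untreated replicates 1, 2 and 3. The TGFb arrays lay close together and far above the untreated arrays, whose values are below the detection limit. In processed intensity the TGFb arrays read 636, 821 and 731, and the untreated arrays 4.65, 7.19 and 9.03. The group means were -0.68 ± 0.20 after TGFb and -7.38 ± 0.23 without it (SD, n = 3 each). Because the untreated value is only a limit, the rise is given as a lower bound on this scale. It was computed against the lowest signal well above background on each untreated array. By that bound Ucma was at least 29.6-fold higher after TGFb, or 4.89 in log2 units. The bound does not carry over to other normalizations: in the values that the authors deposited the log2 difference was 3.34. The difference was 6.76 within day 1 and 6.73 within day 2. The value of untreated replicate 1, an array of day 1, was a surrogate set by the scanner software. The probe lies at chr2:4906712-4906771 on the mm9 build.

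Cilp encodes cartilage intermediate layer protein, a matrix protein that binds TGFb and restrains its signalling. On the log2 scale it read -2.58, -3.23 and -1.90 on TGFb replicates 1 to 3, and -7.29, -7.68 and -6.56 on untreated replicates 1 to 3. It was above background on every TGFb array and on no untreated array, and its TGFb arrays were spread more widely than those of Ucma. The intensities were 160, 127 and 367 after TGFb and 5.61, 4.88 and 16.7 without it, the highest of each group being replicate 3. By the same bound, on this scale, Cilp was at least 7.98-fold higher, or 3.00 in log2 units. Its difference was 4.91 within day 1 and 4.00 within day 2. In the deposited values the log2 difference of Cilp was 1.60, below that bound. The values of untreated replicates 1 and 2, the untreated arrays of day 1, were surrogates set by the scanner software. Its probe lies at chr9:65128007-65128066 on mm9.

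The pattern of Ucma and Cilp, above background on all TGFb arrays and on no untreated array, was shared by 63 of 21960 genes, or 0.287%, and the opposite pattern by 137, or 0.624%. Since the set was chosen for this pattern, nothing is read from that share. The summed level of 8 chondrocyte markers was 2.31 to 5.24 times the 75th percentile on TGFb arrays and 1.04 to 1.78 on untreated arrays, and most of that sum was 1 gene, Sox9. The other 7 summed to 0.296 to 0.757 on TGFb arrays and 0.138 to 0.20 on untreated arrays. Sox9 was the 1 marker of that list above background on all 6 arrays, and Col9a1 and Matn1, which define cartilage, were not above background on any array.

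Markers of the other cell types that a muscle sort could carry also moved between the groups. Their summed levels overlapped, but each sum was carried by its brightest gene: fibroblasts at 2.81 to 5.30 after TGFb and 2.40 to 3.88 without it, endothelial cells at 0.697 to 3.31 and 0.977 to 4.13, leukocytes at 16.3 to 117 and 16.2 to 66.4, pericytes at 65.8 to 422 and 49.9 to 325, and Schwann cells at 2.79 to 4.45 and 2.39 to 3.50. With the brightest gene of each list left out, the fibroblast markers summed to 0.428 to 0.484 after TGFb and 0.890 to 0.937 without it, and the endothelial markers to 0.342 to 0.531 and 0.727 to 1.11, both lower after TGFb on every array. The pericyte markers then summed to 30.9 to 44.8 and 19.6 to 23.6, higher after TGFb on every array. Of those, Rgs5 read 3.51, 4.46 and 5.12 in log2 level after TGFb and 1.74, 1.85 and 3.36 without it. The groups overlapped for Pdgfrb, Cspg4 and Notch3, so the higher sum is not a shift of the whole list. The leukocyte sums, at 0.745 to 1.18 and 0.771 to 1.22, and the Schwann cell sums, at 0.951 to 1.64 and 1.37 to 2.23, still overlapped. With scan day in the model Rgs5, of pericytes, rose by 1.57 and Mbp, of Schwann cells, by 0.98, while Thy1 and Dcn, of fibroblasts, fell by 1.55 and 2.57, Vwf, of endothelial cells, by 1.30 and Ngfr, of Schwann cells, by 0.72 (limma, adjusted p = 0.0161, 0.0214, 0.00481, 0.0159, 0.00625 and 0.0499). These genes passed in that fit alone, and except for Dcn they are named because of it. With Kdr left out, Vwf was the brightest endothelial marker. Other markers went against their list: Pecam1, of endothelial cells, differed by 0.60 in that fit, Cd34, of fibroblasts, by 0.57 and Notch3, of pericytes, by -0.23. None of these passed (limma, adjusted p = 0.288, 0.102 and 0.479). Of those lists Dpt, Tek, Tie1, Emcn, Cd68, Lyz2, Myh11 and Kcnj8 were not above background on any array. The part of any of these markers in the levels of Ucma and Cilp was not tested. In RNA from a whole culture, more cells with a transcript and more transcript per cell cannot be told apart.

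Cilp2, the paralogue of Cilp and also a cartilage matrix protein, was above background on all 6 arrays. Its log2 level was -2.43, -3.16 and -2.66 on TGFb replicates 1 to 3, and -0.47, -0.69 and -2.08 on untreated replicates 1 to 3. All TGFb arrays lay below all untreated arrays, with untreated replicate 3, the day 2 array, nearest to them. The difference was -1.67 ± 0.50 (SE; unadjusted 95% interval -2.88 to -0.45) and did not pass over all genes (limma, adjusted p = 0.248). With scan day in the model it was -1.34 ± 0.29 (limma, adjusted p = 0.0504), and it was -1.85 within day 1 and -0.83 within day 2. Cilp2 thus read lower where Cilp was detected, but the difference missed the threshold in both fits. The probe lies at chr8:72404948-72405007 on mm9.

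Acan, which encodes aggrecan, was dim but above background on all 6 arrays. The log2 levels were -4.04, -4.88 and -4.85 on TGFb replicates 1 to 3, and -4.09, -3.96 and -5.09 on untreated replicates 1 to 3. The groups overlapped, and the day 1 arrays were higher than the day 2 arrays in both. The difference was -0.21 ± 0.43 (limma, adjusted p = 0.860) with the group as the only term and 0.10 (limma, adjusted p = 0.690) with scan day in the model, so the sign depended on the fit. The interval of the second fit ran from -0.26 to 0.47. Hapln1, the link protein that fastens aggrecan to hyaluronan, was not above background on any array, and no fold is given for it.

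Chad encodes chondroadherin, a leucine-rich cartilage protein that binds cells. It was above background on TGFb replicate 1 and untreated replicates 1 and 2, the 3 arrays of day 1, and on none of day 2. Across all tested genes, 832 (3.79%) were above background on all day 1 arrays and no day 2 array. The log2 level of Chad was -5.03, -7.50 and -6.01 on TGFb replicates 1 to 3, and -4.61, -5.01 and -7.95 on untreated replicates 1 to 3. The groups overlapped, and the difference was -0.32 ± 1.06 (limma, adjusted p = 0.915) or, with scan day in the model, 0.49 (limma, adjusted p = 0.602). Within day 1 the difference was -0.22 and within day 2 it was 1.20. Chad entered the fit only through its day 1 arrays, and on the untreated arrays the level on day 2 minus that on day 1 was -3.15. On TGFb replicate 2 and untreated replicate 3, arrays of day 2, the value of Chad was a surrogate set by the scanner software.

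Matn2, a matrilin that links matrix fibrils in many connective tissues, was above background on all 6 arrays. Its log2 level was 2.66, 3.1 and 3.11 on TGFb replicates 1 to 3, and 2.45, 2.24 and 3.02 on untreated replicates 1 to 3. The groups overlapped, since untreated replicate 3 exceeded TGFb replicate 1. The difference was 0.38 ± 0.32 (limma, adjusted p = 0.733; 95% interval -0.39 to 1.16), and with scan day in the model it was 0.20 (limma, adjusted p = 0.450; interval -0.18 to 0.57). No change in Matn2 was detectable with 3 arrays a group.

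Scx, the basic helix-loop-helix factor that marks tendon progenitors, was above background on all 6 arrays. It read 5.97, 5.77 and 5.72 on TGFb replicates 1 to 3, and 5.63, 5.47 and 5.60 on untreated replicates 1 to 3. Every TGFb array lay above every untreated array, by a narrow margin, and no array was flagged as saturated at this probe. The difference was 0.26 ± 0.24 (limma, adjusted p = 0.755; 95% interval -0.33 to 0.84) and 0.29 ± 0.15 with scan day in the model (limma, adjusted p = 0.289). It was 0.42 within day 1 and 0.15 within day 2. Scx RNA was thus present without TGFb in these myoblast cultures, and no change passed the test in either fit. The probe lies at chr15:76289708-76289767 on mm9.

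Mkx encodes mohawk, a homeobox factor needed for the matrix of tendon. Its log2 level was 0.80, -1.33 and -0.93 on TGFb replicates 1 to 3, and -1.49, -1.13 and -2.68 on untreated replicates 1 to 3. The groups overlapped over all 6 arrays, because TGFb replicate 2 read below untreated replicate 2, an array of the other day. Within a day they did not overlap, and the difference was 2.11 on day 1 and 1.55 on day 2. With the group as the only term it was 1.28 ± 0.69 (limma, adjusted p = 0.578). Mkx rose by 1.83 ± 0.23 with scan day in the model (limma, adjusted p = 0.0103; 95% interval 1.25 to 2.40), or 3.55-fold. Leaving out TGFb replicate 1, untreated replicate 2 or untreated replicate 3 from that fit took the limma adjusted p to 0.0797, 0.0539 and 0.0686, at differences of 1.55, 1.86 and 2.11.

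Tnmd encodes tenomodulin, a membrane glycoprotein of mature tenocytes that is a known target of scleraxis. Its probe was printed in 10 spots. On each TGFb array 1 of these spots was above background and on the untreated arrays none was, counted before outlier spots were removed. TGFb replicates 1 to 3 had 2, 1 and 1 outlier spots, so the flagged spot may be among them. The probe as a whole was not above background on any array. Tnmd was therefore not tested. Its mean log2 level was -7.31 ± 0.26 on TGFb arrays and -7.52 ± 0.27 on untreated arrays (SD, n = 3 each), and these groups overlapped.

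**Figure D2:**
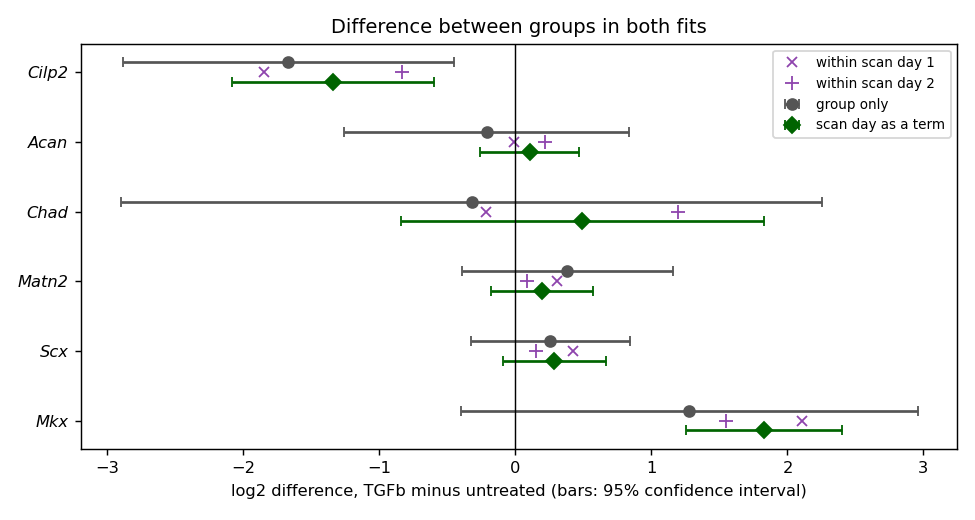
Log2 difference, TGFb minus untreated, for the 6 genes that were tested, with grey circles for the fit on group alone and green diamonds for the fit with scan day in the model, each with its unadjusted 95% confidence interval. Crosses mark the difference within day 1 and plus signs that within day 2; Mkx lies to the right of 0 within both days and Cilp2 to the left.

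Of the 8 genes that did not prompt the choice, 6 entered the fit. With the group as the only term 0 of the 6 passed (limma, with Cilp2 alone at an unadjusted p under 0.05), where 1.4% of all genes did. Adding scan day, 1 of the 6 passed, Mkx, where 10.3% of all genes did. Cilp2 and Scx were the 2 of 6 whose groups did not overlap, a pattern found for 3913 of all tested genes, or 17.8%. These shares over so few genes do not set the group apart from the rest of the array. By level, 5 of the 10 genes were above background on all 6 arrays, and 2, Hapln1 and Tnmd, on none.

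In the table of normalized log2 values that the authors deposited, for which no normalization method is named in these sources, the differences were smaller for the genes close to background. Ucma read 10.44, 9.69 and 9.41 on the TGFb arrays and 6.43, 6.69 and 6.41 on the untreated arrays, a difference of 3.34. Cilp read 8.46, 7.48 and 8.44 against 6.49, 6.64 and 6.43, a difference of 1.60. For both genes the groups stayed apart. The mean SD of the difference between arrays of a group from other days was 0.401 in this table, against 1.5 on the scale used above. Arrays of the same day read 0.479 in this table for TGFb replicates 2 and 3, and 0.205 for untreated replicates 1 and 2. Pairs from other days were thus no further apart than that TGFb pair. A group-only fit on these values is therefore not separate support for the fit with scan day in the model.

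Cilp2 and Mkx passed in the fit on the deposited values with the group as the only term. That fit called more genes than the fit on the scale used above: of 21960 genes 1583 rose and 1720 fell. Cilp2 fell by 1.12 (limma, adjusted p = 0.00879), from a mean of 9.30 ± 0.25 in untreated cells to 8.18 ± 0.29 after TGFb (SD, n = 3 each). Mkx rose by 1.44 (limma, adjusted p = 0.00729), with 10.72, 9.79 and 10.29 on the TGFb arrays above 8.63, 8.99 and 8.84 on the untreated arrays. For Scx the difference was 0.49, and the groups again did not overlap. Acan, Chad and Matn2 differed by 0.07, 0.06 and 0.20, and neither these nor Scx passed.

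**Figure D3:**
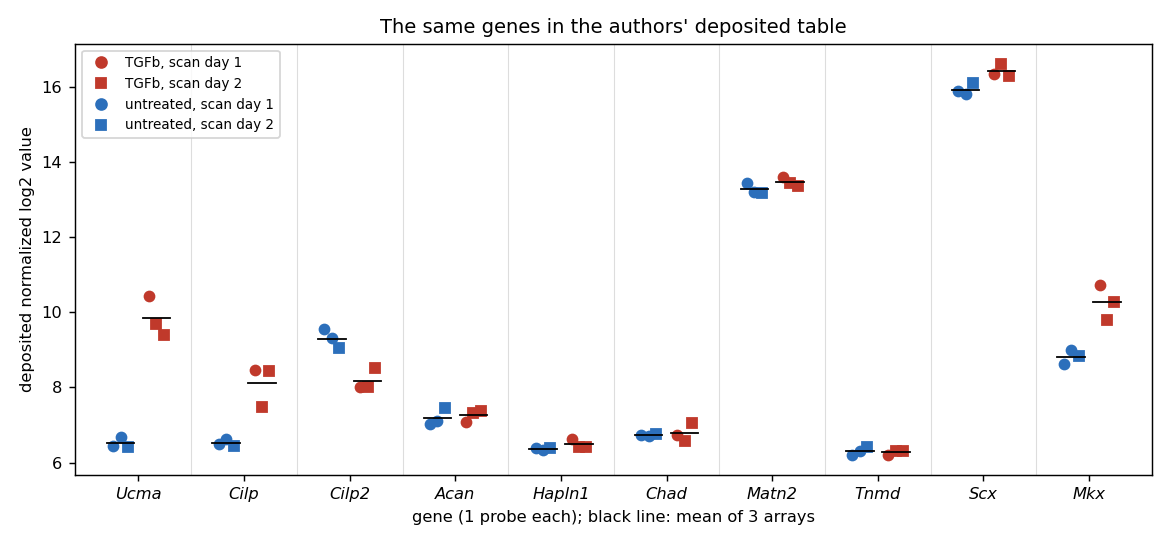
Normalized log2 values of the same 10 genes in the authors' deposited table, with TGFb arrays in red, untreated arrays in blue, circles for day 1, squares for day 2 and black lines for means of 3 arrays. The TGFb and untreated arrays of Ucma, Cilp, Cilp2, Scx and Mkx do not overlap, nor do those of Hapln1, which was not above background on any array.

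Among 22 other genes of cartilage matrix, 11 were tested. Col11a1, a collagen chain of cartilage fibrils, was above background on all TGFb arrays and no untreated array and was at least 4.05-fold higher after TGFb. It entered the fit through its TGFb arrays alone, so no test is given for it. Of the 10 tested genes that were above background on arrays of both groups, 0 rose and 0 fell with the group as the only term (limma, with 2 higher and 1 lower at an unadjusted p under 0.05), where 0.697% of all genes rose and 0.706% fell. When scan day was included 3 of the 10 rose and 1 fell, where 4.67% and 5.65% of all genes did. Col2a1, the main collagen of cartilage, had levels of -2.18, -1.19 and -0.82 after TGFb and -4.70, -5.44 and -3.77 without it, and 2 of the 3 untreated arrays were above background. It missed the threshold in the first fit (3.24 ± 0.56; limma, adjusted p = 0.0628) and rose by 2.83 ± 0.26 with scan day in the model (limma, adjusted p = 0.00465). Mgp, an inhibitor of calcification, differed by -1.74 (limma, adjusted p = 0.0536) and fell by 1.74 in the second fit (limma, adjusted p = 0.0125). Comp, a matrix protein of both cartilage and tendon, differed by 0.94 in the first fit and rose by 1.21 in the second (limma, adjusted p = 0.478 and 0.0229). The median difference of the 11 tested genes was -0.0030, or 0.51 with scan day in the model, beside 0.05 and 0.04 for all genes. Both medians of the list include Col11a1, which entered through its TGFb arrays alone and raises them, so they are not compared further.

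Of 16 chondrogenic regulators 14 were tested, and none passed with the group as the only term (limma, with 1 higher and 2 lower at an unadjusted p under 0.05), where 1.4% of all genes did. With scan day in the model 1 rose and 1 fell, where 4.67% and 5.65% of all genes did. Sox9, the master regulator of cartilage, had levels of 1.01, 1.84 and 2.16 after TGFb and -0.15, -0.07 and 0.70 without it, so that all TGFb arrays lay above all untreated arrays. Its difference was 1.51 ± 0.42 (limma, adjusted p = 0.216), and with scan day in the model it rose by 1.21 ± 0.16 (limma, adjusted p = 0.0124). Sox6, a partner of Sox9, differed by -1.49 in the first fit and fell by 1.65 in the second (limma, adjusted p = 0.188 and 0.0342). Pthlh, a hormone-like growth plate signal, differed by -0.88 and -0.96 and passed in neither (limma, adjusted p = 0.314 and 0.0569). The median of the list was 0.05.

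Tendon and ligament matrix was represented by 13 tested genes of 18, of which 1 rose and 0 fell in the first fit (limma, with 5 higher and 2 lower at an unadjusted p under 0.05) and 5 rose and 2 fell with scan day in the model. Over all genes those shares were 0.697% and 0.706% in the first fit and 4.67% and 5.65% in the second. Tnc, the matrix protein tenascin C, rose by 4.32 ± 0.46 (limma, adjusted p = 0.0170). Its levels were 0.92, 1.80 and 0.25 after TGFb and -2.93, -3.46 and -3.61 without it. Thbs2, a thrombospondin of fibrous matrix, differed by 1.66 (limma, adjusted p = 0.0542) and rose by 1.77 in the second fit (limma, adjusted p = 0.00471). In the other direction, Dcn, the collagen-binding proteoglycan decorin, differed by -2.28 and fell by 2.57 with scan day in the model (limma, adjusted p = 0.123 and 0.0159). Thbs4, a thrombospondin of tendon, differed by -1.51 and fell by 1.95 with scan day in the model (limma, adjusted p = 0.375 and 0.00274). The median of the list was 0.47. The summed level of 7 tenocyte markers was 3.84 to 6.38 times the 75th percentile on TGFb arrays and 2.90 to 4.70 on untreated arrays, which overlap, as do the 0.431 to 0.457 and 0.415 to 0.792 left without Col12a1, the brightest of them. Kera and Angptl7 of that list were not above background on any array. The part of these markers in the levels of Mkx and Scx was not tested.

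Of 17 tendon regulators 16 were tested, and 1 rose and 1 fell in the first fit. Mstn, which encodes myostatin, a TGFb-family inhibitor of muscle growth, fell by 3.60 ± 0.50 (limma, adjusted p = 0.0348), and Eya2, a partner of sine oculis homeobox factors, rose by 2.41 ± 0.34 (limma, adjusted p = 0.0350). Including scan day, 5 rose and 1 fell. Over all genes 0.697% rose and 0.706% fell in the first fit, and 4.67% and 5.65% in the second. Egr2, a zinc-finger factor, differed by 2.30 (limma, adjusted p = 0.113) and rose by 1.95 in the second fit (limma, adjusted p = 0.00802). The median of the list was 0.29 in the first fit and 0.09 in the second. Among 12 tested of 23 relatives of the 10 genes, none passed in the first fit (limma, with 0 higher and 2 lower at an unadjusted p under 0.05; 1.4% of all genes passed), and Bglap2, an osteocalcin gene, and Mgp, already named, fell in the second. Bglap2 differed by -1.86 and then fell by 1.54 (limma, adjusted p = 0.141 and 0.00433). Vcan, the relative of aggrecan called versican, differed by 0.72 (limma, adjusted p = 0.456). The median of these relatives was -0.33, with Hapln4 included, which entered the fit through its untreated arrays alone.

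**Figure D4:**
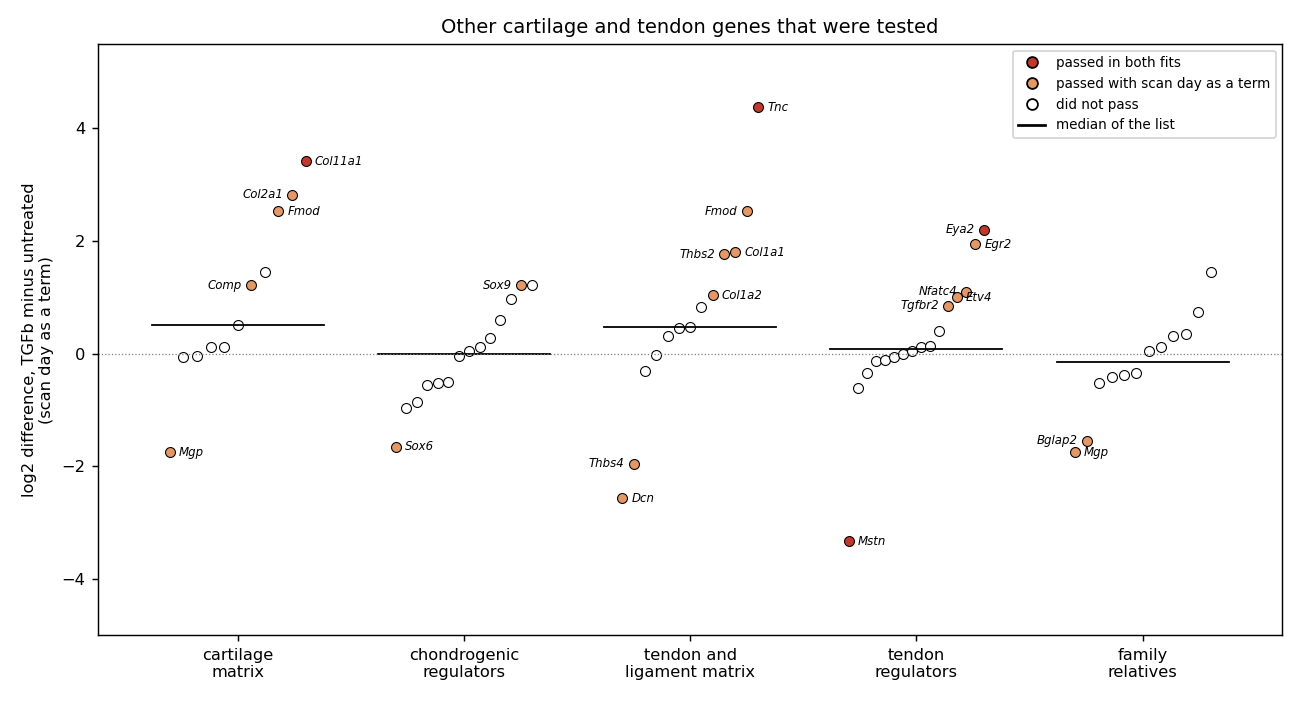
Log2 difference, TGFb minus untreated, from the fit with scan day in the model, for each tested gene of 5 lists ordered by size within the list. Red points passed in both fits (Col11a1 entered the fits through its TGFb arrays alone), orange points with scan day in the model alone and white points in neither; black lines are list medians, which lie between -0.15 and 0.51, and Fmod, Col1a1, Col1a2, Nfatc4, Etv4 and Tgfbr2 are labelled because they passed, after their values were seen.

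Of 8 known TGFb targets, taken as a check of the treatment, 3 rose in the first fit and 7 with scan day in the model, where 0.697% and 4.67% of all genes did, and the median difference was 2.35. The list was written with earlier results of these arrays known, so it is not an independent check. Ccn2 rose by 3.06, Ltbp2 by 3.77 and Ldlrad4, above background on 1 of 3 untreated arrays, by 3.90 (limma, adjusted p = 0.0112, 0.0150 and 0.0150). Smad7, an inhibitor of TGFb signalling, differed by 1.90 and rose by 1.60 with scan day in the model (limma, adjusted p = 0.183 and 0.0415). The myoblast genes Pax7 and Myod1 differed by 0.08 and 0.03 (limma, adjusted p = 0.912 and 0.987), and Des by -1.17 (limma, adjusted p = 0.139). With scan day in the model Des, the intermediate filament protein of muscle, fell by 1.28 (limma, adjusted p = 0.00975), and Pax7 and Myod1 differed by -0.0247 and -0.53 (limma, adjusted p = 0.933 and 0.0905). The summed level of the 8 myoblast markers overlapped, at 511 to 852 times the 75th percentile after TGFb and 662 to 1003 without it.

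The genes most like Ucma were sought among 44 named genes that were above background on all TGFb arrays and no untreated array. Likeness was the root mean square difference over the 6 arrays, in log2 units, after each gene was centred on its own mean. Adamts16, a secreted metalloprotease, came nearest at 0.780, with levels of -1.95, -1.24 and -1.21 after TGFb and -6.35, -7.69 and -7.82 without it. Sprr2e, a protein of the epidermal envelope, followed at 1.02, Cilp at 1.23, Olr1, a receptor for oxidised lipoprotein, at 1.24, and Il21r, a cytokine receptor, at 1.35. Their lower bounds were 17.1-fold for Adamts16, 8.59-fold for Sprr2e, 4.58-fold for Olr1 and 9.41-fold for Il21r, each a limit that does not order the genes. All candidates met the same detection rule, so their likeness is a description of these 6 arrays.

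**Figure D5:**
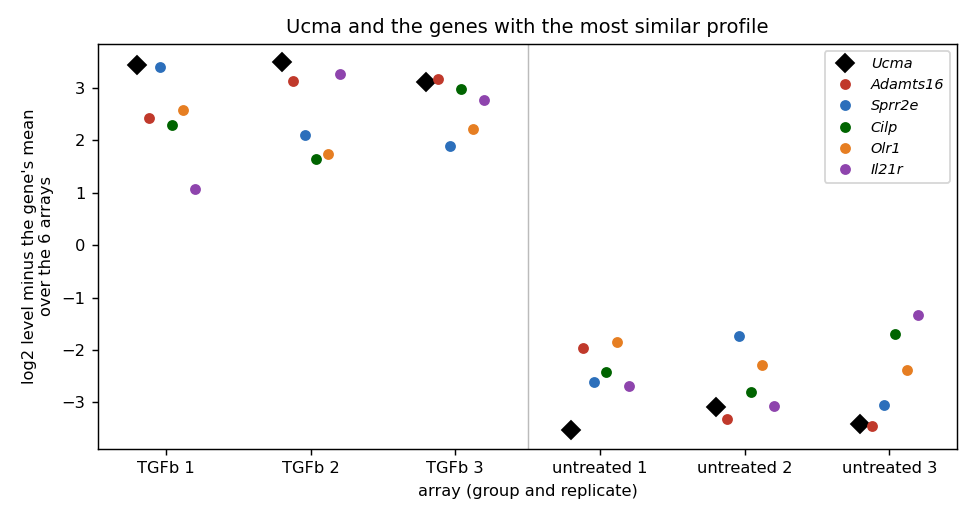
Log2 level on each array, minus the mean of the gene over the 6 arrays, for Ucma (black diamonds) and the 5 genes with the smallest root mean square difference from it. The points of all 6 genes are above 0 on the TGFb arrays and below 0 on the untreated arrays.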

How the data were processed

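RNA from cultured myoblasts was measured on 1-colour Agilent arrays. The authors deposited a scanner file per array with the intensity of each spot, extracted with Agilent Feature Extraction 10.7.3.1 per the file headers, which subtracted background. They also deposited a table of normalized log2 values, used as an alternative. Its columns have medians of 7.11 to 7.12 and each correlated best with its own array, and no source used here gives its normalization.

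Outlier and control spots were removed and spots of a probe averaged after log2 and subtraction of the 75th percentile. A gene was its probe with the highest mean, among probes above background on at least 3 of 6 arrays. Names were updated through RefSeq accessions (26300 probes matched, 2839 names changed). The comparison used limma 3.58.1 (R 4.3.3), group alone, Benjamini-Hochberg, threshold 0.05; scan day, slide, replicate block, normexp with quantile normalization, the deposited table, probe filters, probe choice and left-out replicates were alternatives. The fits were tested on simulated data. Probe positions are mm9, with no gene annotation of that build used here.

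The genes and lists were chosen with earlier results of these data known. Named genes are the 10 genes, those past the threshold in each list up to 6, or those with the smallest adjusted p up to 3, a few control genes (of which some are not reported here), and the 5 most like Ucma.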

Additional observations from a re-analysis of the deposited data

How the results depend on the processing

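In the order higher then lower after TGFb, the count of genes passing (limma) was 153 and 155. It became 1019 and 1234 with scan day as a term, 366 and 411 with slide as a block, 1583 and 1720 in the deposited table and 324 and 354 with scan day as a term and untreated replicates 1 and 2 averaged, an alternative chosen after seeing the data. Averaging those 2 untreated replicates without the scan-day term left 0 and 0 (limma, 1460 genes at an unadjusted p under 0.05). Leaving out 1 array at a time gave 0 to 117 higher and 0 to 78 lower without scan day (limma, at least 1467 genes at an unadjusted p under 0.05), and 147 to 1542 and 183 to 1811 with it. The counts were 0 and 0 without TGFb replicate 2, untreated replicate 1 or untreated replicate 2. Whether replicate numbers pair the cultures cannot be read from these arrays. Deviations of same-numbered samples correlated at 0.808, -0.716 and 0.691, positive where the arrays shared a scan day and negative where they did not. The replicate block left 2 higher and 0 lower (limma, 2949 genes at an unadjusted p under 0.05), and in the lists 0 and 0. The lists, with the 8 TGFb targets among their 69 tested genes, held 6 higher genes, Col11a1 included, and 1 lower. The TGFb targets made up 3 of these 6 higher genes, and 7 of the 21 higher with scan day. The counts were 21 and 6 with scan day, 12 and 4 with slide and 21 and 7 in the deposited table. They were 11 and 3 with scan day and averaging, 0 and 0 with averaging alone, and 2 lower with probes above background on all 6 arrays. Over all genes 0.697% were higher and 0.706% lower, or 4.67% and 5.65% with scan day. Leaving out 1 array gave 0 to 6 higher and 0 to 1 lower, or 6 to 21 and 1 to 7 with scan day.

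Mkx passed (limma) with scan day as a term (1.83), in the deposited table (1.44) and with scan day and averaging (1.79), and in 3 of 6 scan-day fits without 1 array, where it ran from 1.55 to 2.11; without scan day those fits gave 0.63 to 1.70. Cilp2 passed in the deposited table (-1.12) and with scan day without TGFb replicate 3 (-1.52), in a range of -1.85 to -0.83, or -2.17 to -1.36 without scan day. The uncalled sign of Acan turned with scan day (0.10), slide (0.0619), the deposited table (0.0658) and scan day with averaging (0.12), while over left-out arrays it ran from -0.57 to -0.00101 without scan day, where the sign held, and from -0.0122 to 0.22 with it. That of Chad turned with scan day (0.49), slide (0.22), the deposited table (0.0551), averaging (0.20) and scan day with averaging (0.59), and ran from -1.37 to 0.34, or -0.22 to 1.20 with scan day. Matn2 and Scx kept their sign and did not pass in all 22 alternatives. Ucma read 3.45 and Cilp 1.74 after normexp and quantile normalization, and 3.34 and 1.60 in the deposited table; in the 19 other alternatives that gave a value Ucma ran from 6.61 to 6.84 and Cilp from 4.00 to 4.94, and requiring all 6 arrays above background left neither. The cause of these shifts was not tested. Medians of the cartilage matrix and chondrogenic regulator lists were 0.10 and -0.0090 in the deposited table. The low signal of Ucma and Cilp without TGFb, and of Hapln1, Tnmd and Chad, limits them to bounds or to no value, and 3 arrays a group limit the precision.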
